A study of Homo sapiens with 2 samples.

Results

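The genes described here are 30 genes of homologous recombination and of the Fanconi anemia pathway, taken by gene symbol from a list that was drawn up with earlier results of these data known, with no measured value in the rule itself. All 30 had a row among the 23375 genes kept from the deposited tables, and all 30 passed the filter of at least 10 reads over both libraries. RNA was sequenced from 786-O, an established human line from a VHL-deficient clear cell renal carcinoma, and from its isogenic SETD2 knockout line, with 1 library of each. SETD2 had been disrupted by a zinc finger nuclease (an engineered enzyme that makes a targeted double-strand cut), and both lines were grown in RPMI1640 medium with fetal bovine serum and no other agent. Whether the knockout line is a single clone is not given in the sources used here. Fragments counted in genes numbered 62304084 for wild type and 50670012 for the knockout. With 1 library per line no p-value is given, every difference is one between these libraries, and the exact 95% intervals printed after ratios cover counting error only.

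Homologous recombination repairs double-strand breaks by copying the sister chromatid. The MRE11-RAD50-NBN complex senses the break and, with RBBP8 (CtIP), starts the resection of its ends, and BRCA1, PALB2 and BRCA2 then prepare the exposed strand for strand exchange. The Fanconi pathway removes crosslinks between the strands of DNA: a nuclear core complex monoubiquitinates the FANCD2-FANCI pair, and repair ends with recombination. SETD2 trimethylates H3K36 along transcribed genes, a mark that has been linked to the recruitment of resection factors at breaks. SETD2 itself had 4908 wild-type and 1404 knockout fragments, a ratio of knockout to wild type of 0.334 (interval 0.314 to 0.354).

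The sequences below are windows around 1 transcript start each of RAD51AP1, XRCC2 and RAD51B. RAD51AP1 and RAD51B had the lowest and the highest ratio in the list. XRCC2 had the lowest ratio of the paralog group with RAD51B, RAD51C and XRCC3. These windows are shown because most of the list had ratios below 1. Each runs from 250 bases before to 30 bases after a transcript start in RefSeq (GRCh38.p14, a later build than that of the tables). Capitals mark the E2F motif, here any of 4 runs of 7 letters on either strand, which are TTCCCGC, its variant TTCGCGC, a form with G as the third letter TTGCCGC and its variant TTGGCGC. E2F factors are known to drive many genes of S phase. The windows are chr12:4538640-4538919 on the plus strand, chr7:152676112-152676391 on the minus strand and chr14:67823291-67823570 on the plus strand.
RAD51AP1: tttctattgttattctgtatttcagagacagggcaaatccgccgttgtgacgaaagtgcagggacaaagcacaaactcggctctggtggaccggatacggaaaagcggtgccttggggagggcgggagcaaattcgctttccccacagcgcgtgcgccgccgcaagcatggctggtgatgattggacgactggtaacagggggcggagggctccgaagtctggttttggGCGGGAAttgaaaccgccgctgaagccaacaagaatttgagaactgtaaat
XRCC2: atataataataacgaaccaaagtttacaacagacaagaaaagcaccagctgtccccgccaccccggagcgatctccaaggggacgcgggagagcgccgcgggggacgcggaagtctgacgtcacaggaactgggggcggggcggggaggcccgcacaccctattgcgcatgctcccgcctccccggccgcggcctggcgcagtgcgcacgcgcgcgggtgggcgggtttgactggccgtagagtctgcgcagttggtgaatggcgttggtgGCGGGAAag
RAD51B: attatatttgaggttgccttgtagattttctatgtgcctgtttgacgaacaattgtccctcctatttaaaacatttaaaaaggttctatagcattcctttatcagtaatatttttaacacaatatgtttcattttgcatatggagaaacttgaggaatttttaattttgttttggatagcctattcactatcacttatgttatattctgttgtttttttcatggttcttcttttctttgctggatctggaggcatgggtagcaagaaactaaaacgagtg
The match began 21 bases before the start in RAD51AP1 and 21 bases after it in XRCC2, and these letters are not in the RAD51B window. RAD51B has 2 starts in RefSeq, and neither window held a match. Which of its starts is used in these lines was not tested. The 3 windows do not stand for the whole list: FANCF and FANCC had ratios above 1 and a match, and RBBP8, MRE11A, RAD51C and FANCM, among others, had ratios below 1 and none.

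RefSeq windows were found for 26 of the 30 genes, 8 of them with several starts, and not for DNA2, FANCI, NBN and RAD54B. The E2F motif was in a window of 17 of the 26 (65.4%), against 14.4% of 27305 genes with a RefSeq window and 24.8% of the 8158 that had at least as many reads in these tables as the gene of the list with the fewest. The median log2 ratio was -0.53 over the 17 genes with a match and -0.11 over the 9 without. A longer form, with 1 more T in front of each of these, was in 5 of the 26 (19.2%) and in 6.62% of those 8158 genes. The CCAAT box (CCAAT) was in 46.2% against 43.5%, the NRF1 motif in 23.1% against 14.0%, and the CHR element (TTTGAA) in 11.5% against 13.2%, each on either strand. The median GC content of the windows was 62.7% for the list and 65.0% for the 8158 genes. Motifs were chosen after ratios were known, and a match describes letters, not a bound site. The split of ratios by E2F match was not made for the 8158 genes. The part of E2F factors in the ratios was not tested.

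Most genes of the list had a ratio of knockout to wild type below 1, and few passed the 1.5-fold rule. The median log2 ratio of the 30 genes was -0.44, a ratio of 0.739, and the quartiles were -0.60 and -0.13. The ratio was below 1 for 24 of 30 genes, against 48.9% of all 16894 genes tested, whose median was 0.02. A gene is called lower or higher where its whole interval lies beyond 1.5-fold. By that rule 5 of 30 genes (16.7%) were lower, namely RAD51AP1, XRCC2, BRCA1, RAD52 and BLM, and 0 were higher. Of all genes tested, 9.17% were lower and 10.4% higher, and of the 11125 genes with at least the 772 reads of the shallowest gene in the list, 10.8% were lower, 6.8% higher and the median was -0.05. A ratio below 1 was found for 54.6% of those 11125 genes. With the whole interval beyond 2-fold, 1 of 30 was lower (RAD51AP1) and 0 higher, against 3.37% lower and 5.75% higher of all genes tested, and 3.1% lower and 2.86% higher of those 11125. Of the 20 recombination genes 5 were lower, and of the 10 Fanconi genes 0, with medians of -0.44 and -0.43. In bulk RNA, fewer cells that express a gene and less RNA per cell cannot be told apart.

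**Figure D1:**
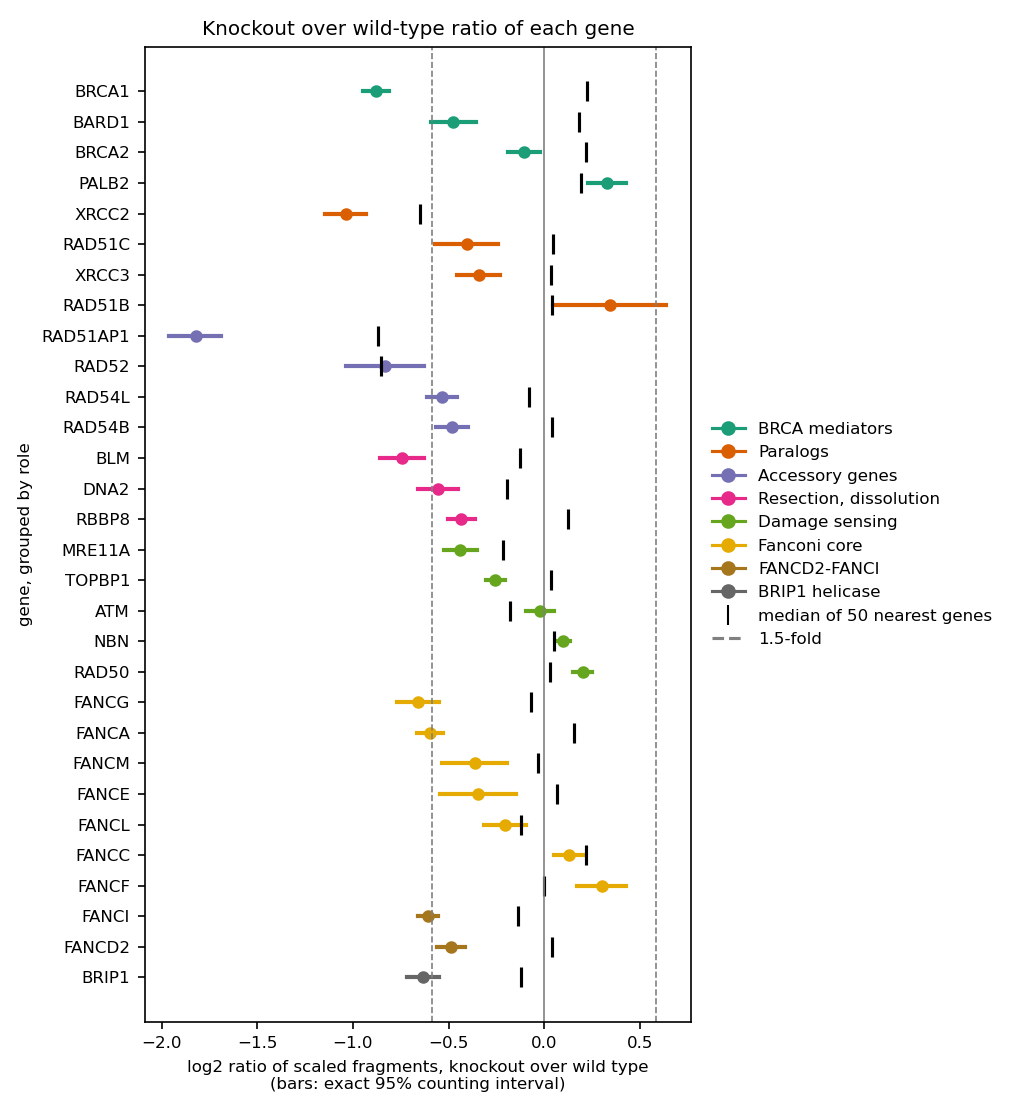
Log2 ratio of scaled fragments, knockout over wild type (x axis), for each of the 30 genes grouped by role (y axis), with exact 95% counting intervals as bars, the median of the 50 nearest expressed genes as black ticks and dashed lines at 1.5-fold. RAD51AP1 lies farthest to the left, and the bars of RAD51AP1, XRCC2, BRCA1, RAD52 and BLM lie wholly beyond the left dashed line.

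The mediators of strand exchange were spread over both sides of 1. BRCA1 (hg19 chromosome 17, 41196312 to 41277500), a ubiquitin ligase that promotes resection and binds PALB2, had 5952 wild-type and 2774 knockout fragments, or 9.43 and 5.42 RPKM (reads per kilobase of exonic length, scaled to library size, as the authors deposited it). Its ratio was 0.544 (interval 0.519 to 0.569), so BRCA1 fell. Its log2 ratio was -0.88, whereas the median over the 50 nearest expressed genes was 0.22. BARD1, which pairs with BRCA1 in the ligase, went from 6.98 to 5.30 RPKM with a ratio of 0.719 (0.663 to 0.780), and BRCA2, a mediator that acts on single-stranded DNA, from 2.71 to 2.65 RPKM with a ratio of 0.929 (0.877 to 0.984). Neither interval lay wholly beyond 1.5-fold. PALB2, the bridge between BRCA1 and BRCA2, stood on the other side of 1, with 1631 and 1753 fragments and a ratio of 1.25 (1.17 to 1.34).

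The paralogs XRCC2, RAD51C, XRCC3 and RAD51B, which support strand exchange, also differed among themselves. XRCC2 (chromosome 7, 152343587 to 152373250) had 2429 and 1015 fragments, 9.23 and 4.75 RPKM, and fell to a ratio of 0.487 (interval 0.453 to 0.525). The neighbour median around XRCC2 was -0.65, against -1.04 for the gene. RAD51C, shared by both paralog complexes, had 776 and 502 fragments (ratio 0.755, interval 0.673 to 0.845). XRCC3, its partner in the complex without XRCC2, had 1554 and 1050 (0.788, 0.728 to 0.853). RAD51B was the least abundant gene of the list, with 185 and 201 fragments or 0.560 and 0.750 RPKM, and a ratio of 1.27 with an interval of 1.03 to 1.56, the widest of the 30 relative to its ratio. The intervals of XRCC2 and of the other paralogs did not overlap.

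The 4 accessory genes of strand pairing and annealing all had ratios below 1. RAD51AP1 (chromosome 12, 4647950 to 4669213), which helps to pair strands, had 2285 wild-type and 554 knockout fragments, or 11.7 and 3.51 RPKM. Its ratio of 0.283 (interval 0.257 to 0.310) was the lowest of the 30, and 2.75% of all genes tested had a lower one. RAD52 (chromosome 12, 1021255 to 1058863), which anneals single strands, had 606 and 292 fragments and a ratio of 0.562 (0.487 to 0.647). Both lie near an end of chromosome 12 where the nearest 50 expressed genes had median log2 ratios of -0.87 around RAD51AP1 and -0.85 around RAD52. Relative to these neighbours RAD51AP1 remained at -0.95, whereas RAD52 stood at 0.02, level with them. The motor proteins RAD54L and RAD54B, which act on duplex DNA, had 3548 and 2100 fragments (ratio 0.690, interval 0.654 to 0.729) and 3109 and 1906 fragments (0.715, 0.675 to 0.757), not called and with overlapping intervals.

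End resection and the dissolution of joint molecules involve RBBP8, DNA2 and BLM. BLM (chromosome 15, 91260579 to 91358686), the RecQ helicase mutated in Bloom syndrome, had 1825 and 934 fragments, 4.70 and 2.96 RPKM, and fell to a ratio of 0.597 (interval 0.551 to 0.646). DNA2, a nuclease and helicase of long-range resection, had 2031 and 1185 fragments (0.681, 0.633 to 0.731), and RBBP8, the cofactor that starts resection, 4243 and 2694 (0.741, 0.705 to 0.777). The last 2 were not called, and all 3 lay below their neighbours, by log2 differences between -0.36 and -0.62. BLM and RAD52 were no longer called when libraries were scaled by total count or by the upper quartile, which leaves 3 of 30 genes lower (10.0%). Under total count scaling 7.55% of all genes tested were lower, and of the 11125 genes of like depth 951 (8.55%) were lower and 921 higher, so the count of called genes is then near the background.

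The break-sensing genes were the group closest to 1, with 0 of 5 called and a median log2 ratio of -0.02. NBN, the regulatory subunit of the MRE11 complex, was the most abundant gene of the list in both libraries, with 15646 and 14370 fragments, 39.5 and 44.7 RPKM, and a ratio of 1.07 (interval 1.05 to 1.10). RAD50, its ATPase subunit, had 6953 and 6850 fragments (1.15, 1.11 to 1.19), and MRE11A, the nuclease, 2732 and 1728 (0.738, 0.694 to 0.784). Within that complex only the nuclease gene thus had an interval below 1. ATM, the kinase that the complex activates, had 3463 and 2922 fragments and a ratio of 0.984, with an interval of 0.937 to 1.03 that holds 1. It moved to the other side of 1 under total count or upper quartile scaling, relative to its neighbours and in RPKM (3.07 and 3.19), and the median of this group became 0.05 under either scaling and relative to neighbours. TOPBP1, which activates the kinase ATR, had 7612 and 5465 fragments (0.837, 0.809 to 0.867).

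The Fanconi core complex showed ratios from 0.632 to 1.23 with 0 of 7 genes called and a median log2 ratio of -0.35. FANCG, a scaffold subunit, had 1942 and 1053 fragments (ratio 0.632, interval 0.586 to 0.682), and FANCA, its binding partner, 4850 and 2745 (0.660, 0.630 to 0.692). FANCM, the translocase that recognises the stalled fork, had 701 and 467 (0.777, 0.690 to 0.875). FANCE, which contacts FANCD2, had 519 and 350 (0.787, 0.685 to 0.902), and FANCL, the ubiquitin ligase subunit, 1573 and 1169 (0.867, 0.803 to 0.936). FANCC and FANCF stood above 1, with 2682 and 2513 fragments (1.09, 1.03 to 1.15) and 964 and 1017 fragments (1.23, 1.13 to 1.35), although FANCC was below its neighbours by a log2 difference of -0.09. Relative to neighbouring genes, FANCA was the 1 core gene that became called, at a log2 difference of -0.75.

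The FANCD2-FANCI pair that the core complex modifies and the helicase gene BRIP1 had ratios below 1 and were not called. FANCI had 8485 wild-type and 4779 knockout fragments, 20.8 and 14.5 RPKM, and a ratio of 0.657 (interval 0.634 to 0.681). FANCD2, its partner, had 4150 and 2539 (0.714, 0.679 to 0.750). BRIP1 (FANCJ), a helicase that binds BRCA1, had 3374 and 1864 fragments (0.644, 0.609 to 0.682). FANCG, BRIP1, FANCI and FANCA all had a ratio under 1/1.5, but their intervals reached past it.

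**Figure D2:**
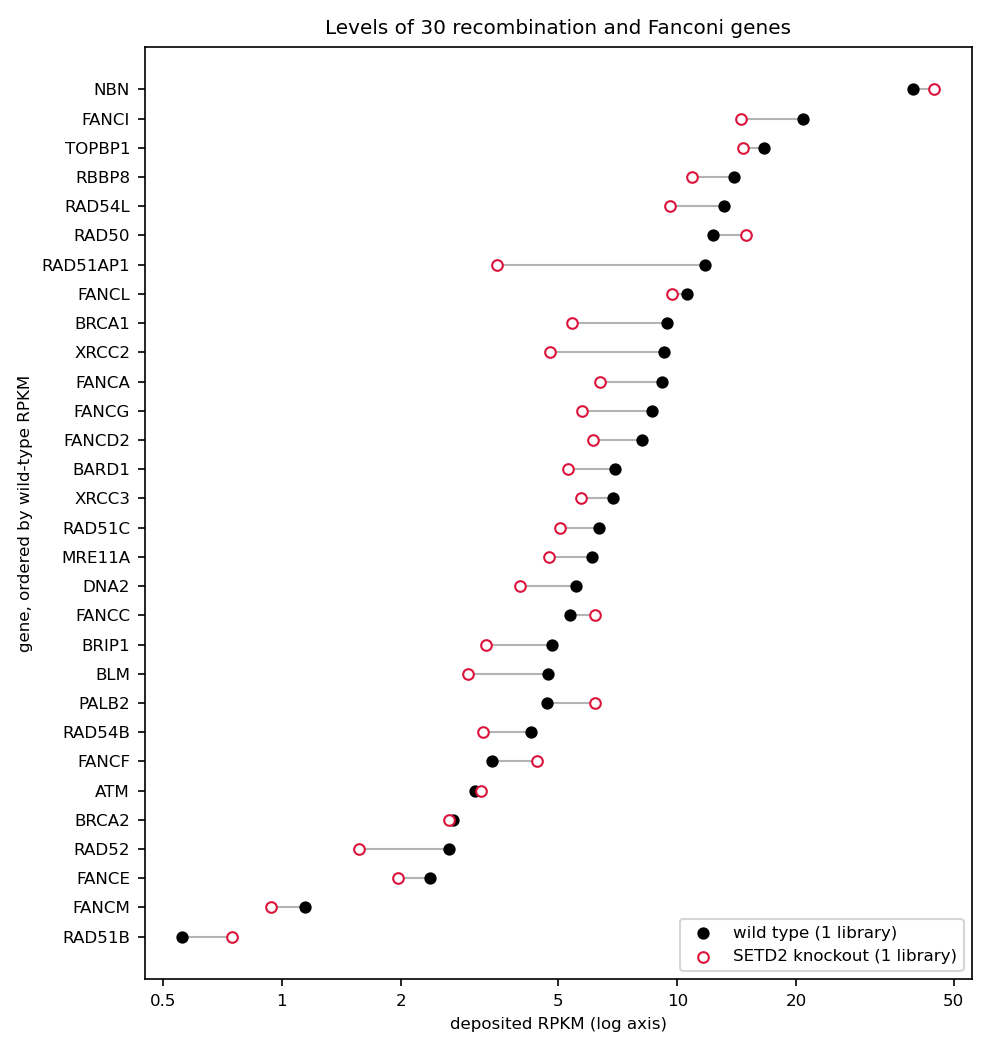
Deposited RPKM on a log axis (x) for the 30 genes ordered by wild-type level (y), with the wild-type library as filled and the knockout library as open points, 1 library each. The open point lies left of the filled one for 23 genes and right of it for 7, and the longest line is that of RAD51AP1.

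Levels per length spanned a wide range, from 0.560 RPKM for RAD51B to 39.5 for NBN in the wild-type library, with medians of 6.61 and 5.18 RPKM over the 30 genes in the wild-type and knockout libraries. The order of the genes was largely kept (Spearman's rho 0.862 across 30 genes of the same libraries, as a description). RAD51AP1 moved from rank 7 to rank 21, whereas PALB2 moved from rank 22 to rank 9 and FANCC from 19 to 10. NBN, TOPBP1 and RAD51B held ranks 1, 3 and 30 in both libraries. RPKM was below its wild-type value for 23 of 30 genes, and by the 1.5-fold limit on RPKM alone the same 5 genes were lower. That limit uses no interval, and the share of all genes under it was not computed. Nor was the share of all genes with RPKM below the wild-type value. The fold alone on scaled fragments gave 9 of 30 genes lower, against 16.8% of all genes tested.

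Some genes that encode partners changed in quotient and others did so little or not detectably, as the plot of quotients shows. A quotient of 2 genes within a library does not depend on how the libraries are scaled. BRCA1 stood at 2.01 times the RPKM of PALB2 in the wild-type library and at 0.872 times in the knockout library, a change of the quotient to 0.434 (approximate 95% counting interval 0.400 to 0.470). The BRCA1 to BARD1 quotient went from 1.35 to 1.02, and that of XRCC2 to RAD51C from 1.46 to 0.940. RAD50 to MRE11A went from 2.02 to 3.15, and NBN to MRE11A from 6.50 to 9.44. FANCD2 to FANCI went from 0.391 to 0.424, a change of 1.09 (1.02 to 1.15). RAD54L to RAD54B (3.08 and 2.97) and XRCC3 to RAD51C (1.08 and 1.13) changed by factors of 0.965 and 1.04, whose intervals, 0.893 to 1.04 and 0.911 to 1.20, hold 1. The pairs were chosen after their values were seen.

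**Figure D3:**
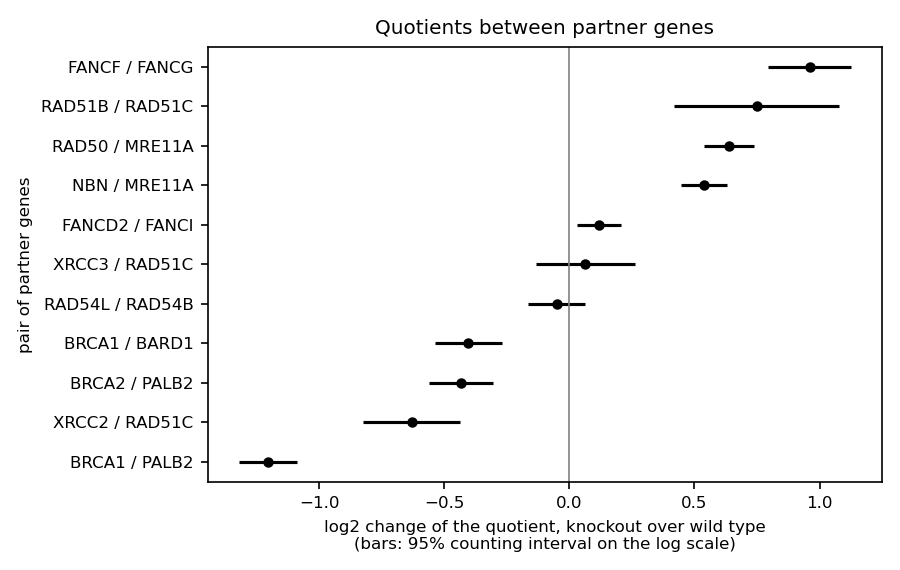
Log2 change, knockout over wild type, of the quotient between the 2 genes named on the y axis, with approximate 95% counting intervals. BRCA1 to PALB2 lies farthest below 0 (change to 0.434) and FANCF to FANCG farthest above it (1.95).

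Position on the chromosome went with some of these values. The 30 genes lie on 17 chromosomes, and across them the ratio and the median of the 50 nearest expressed genes had a Pearson's r of 0.64 and a Spearman's rho of 0.43, a description over 30 genes in which the chromosome 12 genes stand at the low end of both. Of the 30 genes, 23 had a log2 ratio below the median of their neighbours. The share of all genes tested below their neighbours is not given here. The median difference from neighbours was -0.38 for the 30 genes. It was 0.04 for all genes tested and -0.03 for the 11125 genes of like depth. Relative to neighbours 3 of the 30 genes (10.0%) were called lower: RAD51AP1, BRCA1 and FANCA. Over all genes tested the same centring gave 980 lower (5.81%) and 1737 higher genes, in place of 1550 and 1756. XRCC2, RAD52 and BLM were not called relative to neighbours. The part of these regional differences in the results was not tested. The ratio had little relation to the span of the gene (rho 0.19) or to the exonic length (rho 0.12). The spans of 10 genes overlapped another row, 5 of them a row with at least 100 fragments (FANCI, FANCA, RAD54L, XRCC3 and FANCL), and reads of overlapping genes may be shared, since counting by strand is not stated. None of the 5 called genes overlapped another row.

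In a further list of 71 genes of recombination and crosslink repair outside the 30, 10 genes were lower (14.1%, against 9.17% of all genes tested) and 0 higher, with a median log2 ratio of -0.15. The interval lay wholly below 1 for 41 genes and wholly above 1 for 16. Of all 16894 genes tested, it lay wholly below 1 for 5944 and wholly above 1 for 5896. Of the 11125 genes with at least the reads of the shallowest of the 30, these counts were 5164 and 4060. UBE2T, the E2 enzyme that ubiquitinates FANCD2 with FANCL, fell to 0.443 (0.413 to 0.475), and SHFM1 (DSS1), a small partner of BRCA2, to 0.506 (0.486 to 0.526). The nuclease gene DCLRE1B fell to 0.428, PARPBP, an inhibitor of recombination, to 0.436 and PSMC3IP, a cofactor of strand exchange, to 0.562. FBXO18, FIGNL1, RECQL and OBFC2B were lower as well. At the upper end, the nuclease subunits EME2, ERCC4 and ERCC1 had ratios of 1.79, 1.55 and 1.35, the helicase RTEL1 1.57, SWSAP1 1.29 and OBFC2A 1.27. None of these was called. Under total count scaling 2 genes became higher (2.82%, against 11.8% of all genes tested) and 8 stayed lower (11.3%, against 7.55%). Relative to their neighbours 3 genes of this list were lower (4.23%, against 5.81% of all genes tested), UBE2T and PSMC3IP among them.

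Medians of other repair lists lay on both sides of 0, and their counts stand against 9.17% lower and 10.4% higher of all genes tested. Nucleotide excision repair, which removes bulky lesions, had 3 of 13 genes higher, 0 lower and a median log2 ratio of 0.32. ERCC2, a helicase of TFIIH, was 2.16-fold higher (interval 2.02 to 2.32) and DDB2, a damage sensor, 1.67-fold (1.57 to 1.77). End joining, the alternative route for double-strand breaks, had 1 of 11 genes lower, the nuclease gene DCLRE1C (0.601, 0.551 to 0.654), and a median of -0.09; under total count scaling 0 were lower, and relative to neighbours 0 were lower and 1 higher. Mismatch repair had 0 of 7 called and a median of -0.09, with MSH6 at 0.876. Base excision repair had 3 of 18 lower (median -0.19), UNG, TDG and SMUG1, all on chromosome 12, 2 under total count scaling and 1 relative to neighbours. Translesion synthesis had 1 of 8 lower, RAD18 (0.598, 0.561 to 0.638), and a median of 0.11, with 0 lower under total count scaling and 1 relative to neighbours. Differences between these lists were not tested, because genes are not replicates.

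Lists of cell cycle genes also had medians below 0, with most genes not called. Of 26 genes of G1/S, 5 were lower (19.2%, against 9.17% of all genes tested) and 0 higher with a median log2 ratio of -0.42, among them CLSPN, a checkpoint adaptor (0.453), and MCM10, a replication factor (0.490). CCNE1 and CCNE2, which encode cyclin E, had ratios of 1.23 and 1.28 in the same list. Of 26 genes of G2/M, 8 were lower (30.8%) and 0 higher with a median of -0.51, including FOXM1, a mitotic transcription factor (0.419), and NUF2, a kinetochore protein (0.464). Under total count scaling these medians were -0.34 and -0.43, and that of the recombination and Fanconi list was -0.36. The part of cell cycle composition in the ratios was not tested.

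**Figure D4:**
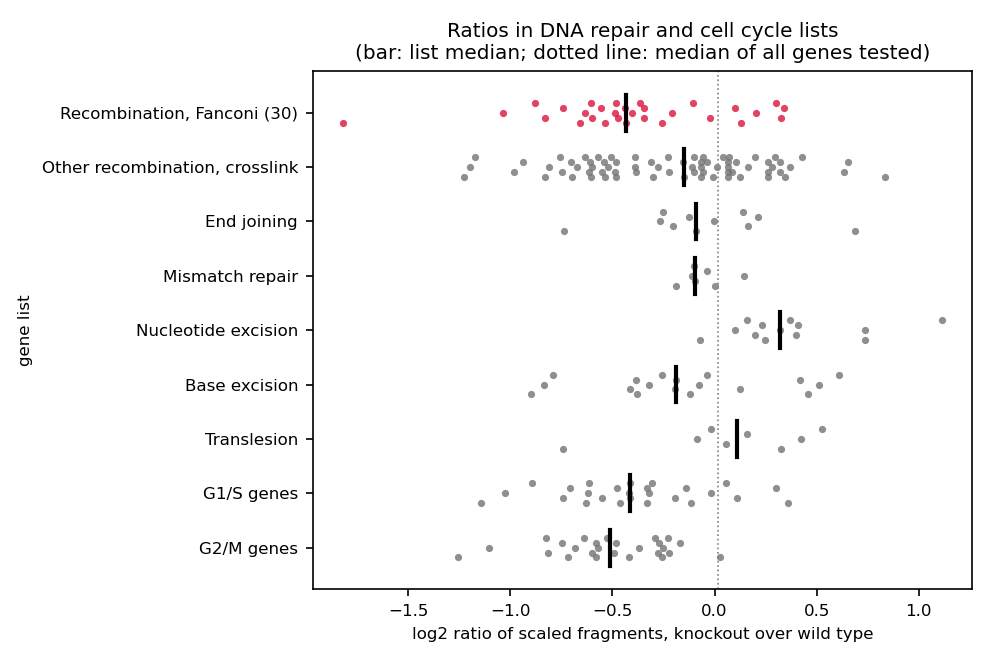
Log2 ratio of scaled fragments, knockout over wild type (x axis), for each gene of the lists named on the y axis (points), with list medians as black bars and the median of all genes tested as a dotted line. The medians of the recombination and Fanconi list (-0.44), G1/S (-0.42) and G2/M (-0.51) lie to the left, and that of nucleotide excision repair (0.32) to the right.

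Proteins that read or remove the mark placed by SETD2 include some with known ties to recombination. PSIP1 (LEDGF), which binds methylated H3K36 and RBBP8, had 6317 wild-type and 4026 knockout fragments and a ratio of 0.743 (interval 0.714 to 0.773). MORF4L1 (MRG15), which binds PALB2, had a ratio of 1.06 (1.03 to 1.08), and HDGFRP2, a relative of PSIP1, 1.09. ZMYND11, a reader of methylated H3.3, was the 1 gene of these 7 called lower (0.602, 0.578 to 0.628), in a region with a neighbour median of -0.59. The Tudor proteins PHF1 and PHF19 had ratios of 1.05 and 0.840, and the demethylase KDM4A 1.21; relative to neighbours 0 of the 7 were lower.

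Defining markers of blood and endothelial cells were at or near 0 in both libraries, while some markers of fibroblasts and CD68 were not. Of 7 leukocyte markers, CD3E had no fragment, PTPRC had 2 and 1, and CD68, which many lines express, had 2344 and 2061, while CD14 had 7 and 38 and ITGAM 45 and 61. Of 5 endothelial markers the most abundant were KDR (22 and 8), TEK (4 and 16) and CDH5 (4 and 3), and of 6 fibroblast markers COL1A1 (418 and 805), LUM (251 and 79) and PDGFRB (57 and 31). By the same rule CD14, TEK and COL1A1 were higher and LUM and COL1A2 (14 and no fragments) lower, and their part in the results was not tested. The erythroid markers HBB and HBA1 had no fragment and ALAS2 10 and 6. Summed RPKM in the wild-type and knockout libraries was 14.9 and 16.5 for leukocyte, 0.0674 and 0.0794 for endothelial and 2.37 and 2.57 for fibroblast markers. The renal lineage factor PAX8 was at 43.7 and 30.9 RPKM. Of the 10 renal markers, EPCAM and VIM were lower, CDH6 was higher, and CA9 had 1 wild-type and no knockout fragment.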

How the data were processed

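Total RNA of 2 libraries was sequenced on Illumina protocols, per the labels' protocols. The submitters' processing notes list TopHat2 2.0.6, Bowtie, HTSeq and the build hg19, with tool settings not given in the sources used here. For either library the authors deposited read counts and RPKM values by gene, per the file headers. All counts were even, so counts were halved to fragments. Rows on Y of 23 genes also listed on X were dropped. Libraries (62304084 and 50670012 fragments) were scaled with TMM factors from edgeR 4.0.16 (R 4.3.3) over 16894 genes with at least 10 reads. Ratios have exact conditional (Clopper-Pearson) 95% intervals, log2 ratios have 0.5 fragments added, and quotients of genes have normal intervals on the log scale. The ratio rule was tested on simulated data that held counting error only, with no spread between cultures. Neighbours are the 50 nearest genes on the chromosome with at least 100 reads.

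The genes and lists were chosen with earlier results of these data known. Named were SETD2, the 30 genes, the 6 lowest and 6 highest of the other recombination genes (at least 200 reads in either library), up to 2 called genes per direction of each other list (else its 2 most abundant), all H3K36 readers and, for each other cell type, its 3 most abundant markers. Further markers, SMUG1, CCNE1, CCNE2 and the other called recombination genes were named after their values were seen, as were the partner pairs and promoter motifs. Alternatives were total count, upper quartile and DESeq2 1.42.0 scaling, minimums of 1 and 50 reads, a 99% interval, no interval, a 2-fold limit, undivided counts, 2 added fragments, centring on neighbours and deposited RPKM. Leaving out overlapping genes or chromosome 12 was added after seeing the data. Some genes that this rule names are not reported here.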

Additional observations from a re-analysis of the deposited data

How the results depend on the processing

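Of 30 recombination and Fanconi genes, 5 were lower in the main analysis. The count was 3 under total count scaling (10.0%, against 7.55% of all genes tested), 3 under upper quartile scaling (against 7.59%) and 3 relative to the 50 nearest expressed genes (against 5.81%). It was 9 when the fold alone was used without an interval (against 16.8%), 1 with the whole interval beyond 2-fold (against 3.37%), and 3 of 28 without the genes on chromosome 12 (against 8.07%), which removes RAD51AP1 and RAD52. It was 5 with DESeq2 size factors (against 9.39%), either other read minimum, undivided counts or without genes that overlap another row. It was 4 with a 99% interval (against 8.07%). By deposited RPKM, where the fold alone was used without an interval, it was also 5. Shares of all genes were not computed for the read minimums, undivided counts, overlap or RPKM. The count of higher genes was 0 in each of these. The median log2 ratio was -0.35 without the 10 overlapping genes, and lay between -0.45 and -0.36 in the other alternatives. The ratio of RAD52 turned to 1.02 relative to its neighbours. Of the 30 single ratios, 9 left their counting interval under total count scaling, 9 under upper quartile scaling, 11 in RPKM and 19 relative to neighbours. The median of all genes tested moved from 0.02 to 0.09 under total count scaling. No paired analysis was possible because each line had 1 library, and no library could be left out. The genes with fewest fragments, RAD51B, FANCE and RAD52, have the widest intervals relative to their ratios, and the spread between cultures is unknown.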

Other observations

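Among 16 regulators of the E2F and RB families and the DREAM complex, 1 was lower (6.25%) and 0 higher, with a median log2 ratio of -0.13. Of all genes tested, 9.17% were lower and 10.4% higher, so the count of lower genes is not above the background. The lower gene was RBL1 (p107), with 4475 wild-type and 2103 knockout fragments and a ratio of 0.548 (interval 0.520 to 0.577), while its relative RBL2 (p130) stood at 1.06 and RB1 at 0.944. E2F1, counted with the G1/S genes, had a ratio of 0.653 (0.622 to 0.685), E2F7 0.668 and E2F8 0.752, against 1.08 for E2F3 and 1.19 for E2F5. These genes other than RBL1 were not called and were named after their values were seen.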
